A study of Mus musculus with 8 samples.

Results

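The matrix metalloproteinases (MMPs), their tissue inhibitors (TIMPs) and the related ADAMTS proteases were examined in mouse wound skin treated with a nanocomposite or with buffer. The family was chosen with earlier results of these data known. Its members were taken by name, as every gene whose symbol begins with Mmp, Timp, Adamts or Adamtsl followed by a number. This gave 51 of the 18540 genes in the count table, made up of 23 Mmp, 4 Timp, 19 Adamts and 5 Adamtsl genes. Of these, 46 had enough counts to be tested and 5 did not (Adamts13, Mmp1a, Mmp7, Mmp20 and Mmp21).

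RNA was sequenced from 8 skin samples, 4 in each group. The control group, titled con, received phosphate buffered saline (PBS), and its samples carry the numbers 1, 2, 3 and 5 (control-1 and so on). The other group, titled shiyan, is the one the study treated with Z1C2Z for 15 days, and its samples carry the numbers 1, 2, 4 and 5 (Z1C2Z-1 and so on). Values per sample are given in the order of these numbers. Z1C2Z is a zinc peroxide and cerium oxide composite in a zeolitic imidazolate framework, made with the higher cerium ratio and injected around full-thickness wounds of the back, at a stated dose of 100 μg/kg in the wound experiments. The sources used here do not say whether the sequenced mice were C57BL or diabetic db/db animals, how old they were, or which samples came from the same mouse. Since each mouse carried a pair of wounds, p-values measure the spread between these samples, which may not all come from separate mice.

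MMPs are zinc-dependent enzymes that cut collagen, basement membrane and other matrix proteins, and most are secreted as inactive precursors that other proteases switch on. TIMPs bind their active sites, so that the balance of enzyme and inhibitor sets how much matrix is cut. In a skin wound these enzymes are known for clearing damaged matrix and for letting keratinocytes, leukocytes and vessels move, while ADAMTS enzymes cut proteoglycans or trim procollagen.

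Several MMP genes are neighbours in the genome. In mouse, 10 Mmp genes form an unbroken run of protein-coding genes on chromosome 9 in RefSeq order (Mmp13, Mmp12, Mmp1b, Mmp3, Mmp1a, Mmp10, Mmp8, Mmp27, Mmp20, Mmp7). Promoter windows of 250 bases before to 50 bases after a gene's start (RefSeq, GRCm38.p6) were found for 36 of the 51 members, the whole run included. They were searched for the letters TGACTCA and TGAGTCA, which are reverse complements of each other and are known as a binding site of AP-1, the Fos and Jun dimer that many wound signals activate. The letters occurred in 7 of the 10 genes of the run and in 0 of the 26 other members with a window. Among all 32851 windows 5.20% held them, and among all 27025 genes with a window 5.95% did. The first base lay 35 bases before the start in Mmp13, 46 in Mmp3, 63 in Mmp10 and in Mmp7, 73 in Mmp1a and 93 in Mmp1b, and 44 before one of the starts of Mmp12. The 120 bases before the start are shown for the run's tested collagenases and stromelysins, as the run's genes that cut fibrillar collagen or activate other MMPs, with the matching letters in capitals. The window of Mmp8 had no match.
Mmp13 (chr9:7272394-7272513, plus strand): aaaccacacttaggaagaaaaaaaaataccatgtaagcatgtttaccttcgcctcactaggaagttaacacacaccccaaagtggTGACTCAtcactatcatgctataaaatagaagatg
Mmp3 (chr9:7445702-7445821, plus strand): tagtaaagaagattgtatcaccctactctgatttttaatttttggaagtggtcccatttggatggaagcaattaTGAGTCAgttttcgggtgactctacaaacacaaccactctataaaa
Mmp10 (chr9:7502222-7502341, plus strand): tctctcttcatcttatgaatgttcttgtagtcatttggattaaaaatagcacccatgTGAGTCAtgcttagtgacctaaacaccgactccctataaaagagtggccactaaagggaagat
Mmp1b (chr9:7388027-7388146, minus strand): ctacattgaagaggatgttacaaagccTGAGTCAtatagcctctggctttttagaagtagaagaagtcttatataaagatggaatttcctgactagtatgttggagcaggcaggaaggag
Mmp8 (chr9:7558309-7558428, plus strand): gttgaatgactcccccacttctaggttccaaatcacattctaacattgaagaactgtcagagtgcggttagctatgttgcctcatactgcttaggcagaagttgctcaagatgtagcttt
A match is a description of the letters and was not tested as a site.

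Levels below are counts per 1000000 of a sample (CPM) after scaling for library size and composition, and differences are log2 fold changes of Z1C2Z against control with their standard error (SE). A gene was called at an adjusted p under 0.05 in edgeR's quasi-likelihood test over 15147 genes. The totals lay between 28856790 and 38974888 counts per sample. Skin was the labelled tissue, and summed keratinocyte markers (11600 to 17700 CPM) and fibroblast markers (24800 to 44400 CPM) were high in all 8 samples. Skeletal muscle markers summed to 3430 to 6210 CPM in control and 2760 to 3190 CPM in Z1C2Z, and hair follicle markers to 447 to 2300 CPM and 2810 to 10700 CPM. In bulk tissue such as this, fewer cells of a type and less RNA per cell cannot be told apart.

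Most of the family was lower in Z1C2Z than in control wounds. Of the 46 tested members, 37 had a log2 fold change under 0, and the median was −0.47, against 0.0086 over all genes tested. Mmp2, Mmp11, Mmp14, Mmp19, Adamts1, Adamts9 and Adamts14 fell at an adjusted p under 0.05 in edgeR, and Adamts18 and Adamts20 rose. The 7 lower genes were 15.2% of the tested members, where 3.85% of all genes were called lower. The 2 higher genes were 4.35% of the members, close to the 4.28% of all genes called higher. Both higher genes also had a log2 fold change over 1 (2.15% of all genes), and 2 of the lower genes, Mmp19 and Adamts9, had one under −1 (1.25% of all genes). The values of the groups did not overlap for 7 lower members (Mmp11, Mmp13, Mmp14, Mmp19, Timp2, Adamts1 and Adamts9, where 8.82% of all genes did so) and 1 higher member (Adamts20, where 8.45% did). At an unadjusted p under 0.05 edgeR had 3 members higher and 20 lower, where 1946 and 2302 of all 15147 genes were. The calls at an adjusted p under 0.05 lay near the threshold. With edgeR, 0 members were called without control-2, without control-5, or without any one of Z1C2Z-1, Z1C2Z-2 and Z1C2Z-4. In this order 18, 17, 22, 18 and 18 members had an unadjusted p under 0.05. The same held for 3755, 3223, 4208, 3137 and 3100 of the 15237 to 15287 genes tested in these fits. Of all genes, 123 were called without control-2 and 0 in each of the other 4 of these fits. Without control-1 edgeR called 11 members (and 9.97% of all genes), without control-3 it called 9 (6.58%) and without Z1C2Z-5 it called 15 (11.4%). The 6 members added without Z1C2Z-5 were Mmp3, Mmp8, Mmp10, Mmp13, Timp2 and Adamts4. With a skeletal muscle or a hair follicle score as covariate edgeR also called 0 members, and of all genes it called 0 and 1. An unadjusted p under 0.05 was reached by 18 and 8 members, and by 2744 and 617 of all 15147 genes. Neither score (the mean log2 CPM of its markers) overlapped between the groups. The muscle score was 7.99 to 8.91 in control and 7.70 to 7.90 in Z1C2Z, the hair follicle score 4.41 to 6.62 and 6.93 to 9.07. These fits cannot tell a difference by treatment from one that follows the score. With the hair follicle score, Mmp19, Mmp11, Adamts1 and Adamts9 stood at −0.95, −0.24, −0.12 and −0.26 on the log2 scale, while Mmp2, Mmp14 and Adamts14 stood at −0.71, −0.69 and −0.90. With the skeletal muscle score, Mmp11, Adamts1 and Adamts18 stood at −0.29, −0.49 and 0.62, and Mmp2 and Adamts14 both at −1.21. DESeq2, run without covariates, called 2 members higher and 15 lower, where it called 7.96% of all genes higher and 10.2% lower. All 9 called members kept their sign in all 15 alternative fits, with these changes in size.

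**Figure D1:**
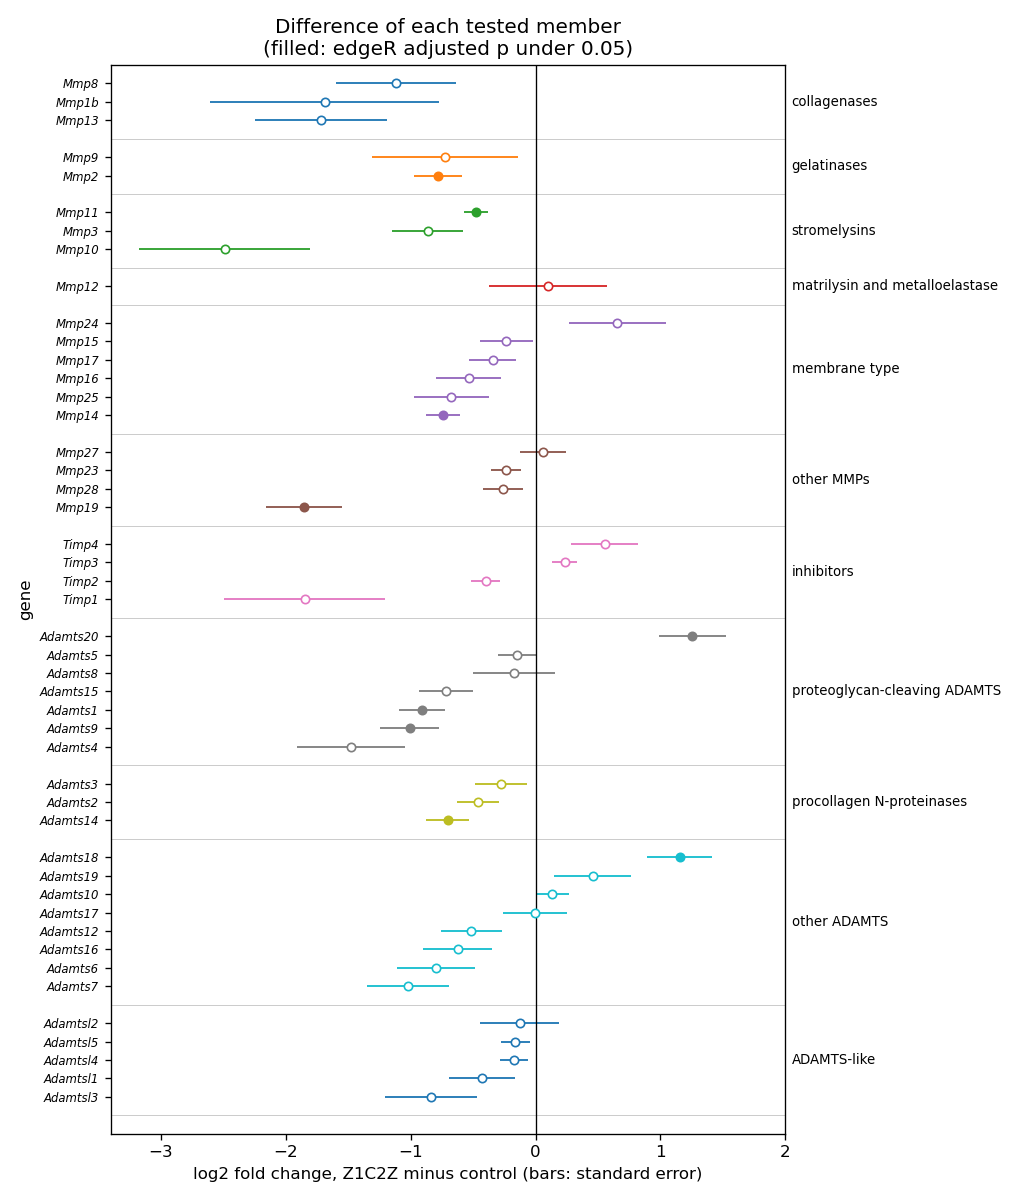
Log2 fold change of Z1C2Z against control for each of the 46 tested members, grouped by role, with bars of 1 SE and filled points for an edgeR adjusted p under 0.05. Of the points, 37 lie left of 0, and the 2 filled points right of 0 are Adamts18 and Adamts20.

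Collagenases cut fibrillar collagen. All 3 tested collagenases had a negative log2 fold change (median −1.69), and edgeR called 0 of them, with 2 at an unadjusted p under 0.05 and 1 called by DESeq2. Mmp13 (Entrez 17386), the main interstitial collagenase of rodents, had 186, 175, 131 and 240 CPM in control. It had 73.9, 24.0, 17.4 and 107 CPM in Z1C2Z. Every control sample was above every treated sample, and Z1C2Z-2 and Z1C2Z-4 were far below the other treated pair. Its log2 fold change was −1.72 (SE 0.53, edgeR adjusted p = 0.0743), with p = 0.0286 in a two-sided exact permutation test over the 8 samples, the smallest that test can give. Mmp8, the collagenase that neutrophils store in granules, had 6.00, 6.80, 7.38 and 14.7 CPM in control and 3.67, 2.25, 1.93 and 8.29 CPM in Z1C2Z. The groups overlapped through the high Z1C2Z-5, and the log2 fold change was −1.12 (SE 0.48, edgeR adjusted p = 0.168). Mmp1b was scarce, at 0.110 to 2.59 CPM in control and 0.0753 to 0.887 CPM in Z1C2Z, with a log2 fold change of −1.69 (SE 0.92, edgeR adjusted p = 0.263). Its paralog Mmp1a had 6, 6, 0 and 10 counts in control and 1, 0, 2 and 5 in Z1C2Z, which overlapped, and was not tested. Reads of Mmp1a and Mmp1b, whose sequences are close, may have been split between the pair when they were counted. In the GENCODE annotation Mmp1b shares 157 exon bases (10.8%) with Mmp12 on the opposite strand. Mmp12 had 649 to 2604 counts per sample, against 3 to 92 for Mmp1b.

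Gelatinases cut denatured collagen and the type IV collagen of basement membranes, and 1 of the pair passed the test. Mmp2 (Entrez 17390), the gelatinase of fibroblasts, fell by 0.78 on the log2 scale (SE 0.19, edgeR adjusted p = 0.0423). It stood at 740, 1190, 1220 and 1130 CPM in control. In Z1C2Z it stood at 685, 517, 521 and 765 CPM. The single overlap was control-1, which lay below Z1C2Z-5, and the exact permutation p was 0.0571. Mmp9 (Entrez 17395), which neutrophils and migrating keratinocytes secrete, had 33.4, 43.7, 53.7 and 50.6 CPM in control and 35.0, 10.6, 6.40 and 57.8 CPM in Z1C2Z. The treated samples split into a low pair, Z1C2Z-2 and Z1C2Z-4, and a pair within or above the control range, and the log2 fold change was −0.73 (SE 0.58, edgeR adjusted p = 0.445). Neutrophil markers summed to 572 to 1510 CPM in control and 169 to 655 CPM in Z1C2Z, and 4 of the 10 (Ly6g, Ngp, Camp and Mpo) were at 0 in at least 1 sample. Per 1000 CPM of these markers, Mmp9 stood at 35.7 to 58.3 CPM in control and 26.9 to 88.2 CPM in Z1C2Z, and Mmp8 at 4.90 to 11.3 CPM and 5.73 to 12.7 CPM. These ratios overlapped for both genes and were not tested. With the hair follicle score as covariate, edgeR gave Mmp9 and Mmp8 log2 fold changes of 0.35 and 0.34, opposite in sign, and called neither.

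Stromelysins have broad substrates and can activate other MMPs. All 3 had a negative log2 fold change (median −0.86), and Mmp11 passed the test. Mmp11 (Entrez 17385), a stromelysin of stromal fibroblasts that is activated inside the cell by furin, had 46.6, 40.7, 38.0 and 48.6 CPM in control and 31.0, 32.4, 30.6 and 31.1 CPM in Z1C2Z. The treated values lay within a narrow band below all control values, and Mmp11 fell by 0.47 on the log2 scale (SE 0.10, edgeR adjusted p = 0.0304, exact permutation p = 0.0286). Mmp3 (Entrez 17392) was the most abundant stromelysin per length, with 429, 441, 277 and 695 CPM in control and 253, 228, 178 and 354 CPM in Z1C2Z. Only control-3 lay inside the treated range, and the log2 fold change was −0.86 (SE 0.29, edgeR adjusted p = 0.0892). Mmp10 (Entrez 17384), which keratinocytes at the wound edge express, had the most negative difference of all tested members. It had 29.9, 7.24, 4.49 and 25.6 CPM in control, and 3.86, 1.55, 1.28 and 5.32 CPM in Z1C2Z. The control samples themselves split into a high and a low pair, and the log2 fold change was −2.49 (SE 0.68, edgeR adjusted p = 0.0561). Keratins and integrin of wound-edge keratinocytes (Krt6a, Krt6b, Krt16, Krt17, Itga5) summed to 2970 to 6740 CPM in control and 2370 to 4290 CPM in Z1C2Z, and their part in this difference was not tested. With the hair follicle score as covariate, edgeR gave Mmp10 and Mmp3 log2 fold changes of 0.98 and 0.33, opposite in sign, and called neither.

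Mmp12, the macrophage metalloelastase, was the one tested gene of its class. It had 70, 22.9, 17.9 and 73.3 CPM in control and 57.2, 41.1, 29.5 and 69.6 CPM in Z1C2Z. The treated values lay inside the control range, and the log2 fold change was 0.10 (SE 0.47, edgeR adjusted p = 0.909). Macrophage markers summed to 2450 to 3000 CPM in control and 1500 to 2480 CPM in Z1C2Z. Mmp7, the matrilysin of glandular epithelia, had 0 counts in every control sample and 0 to 11 in the treated samples.

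**Figure D2:**
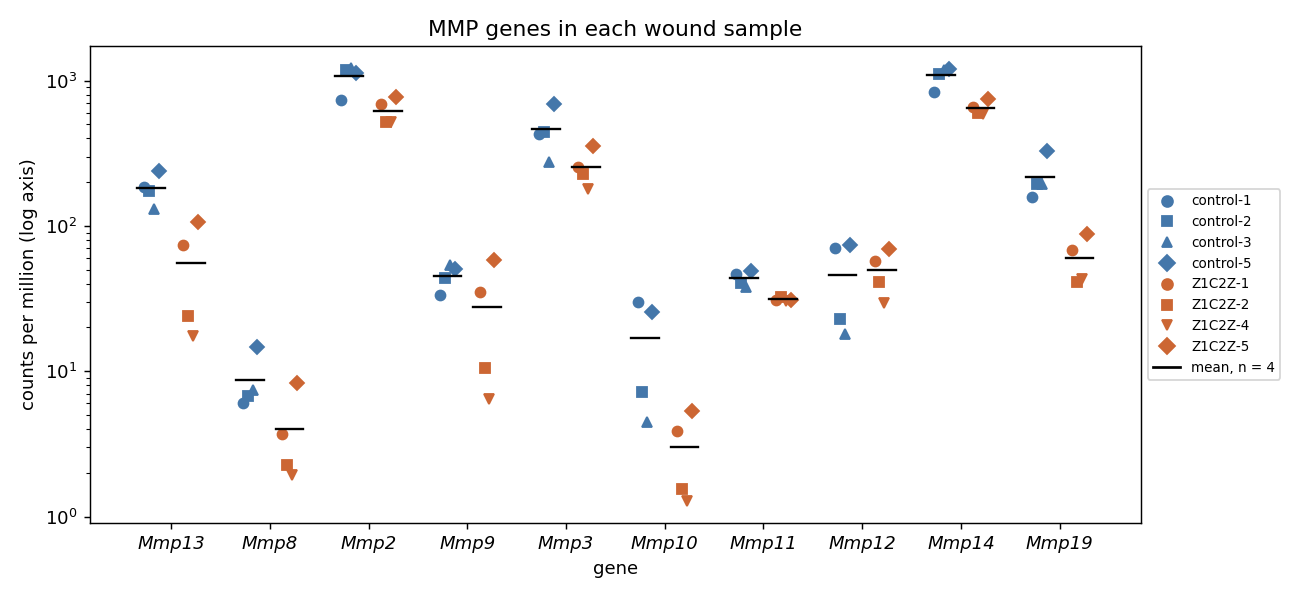
CPM on a log axis for 10 Mmp genes in each of the 4 control and 4 Z1C2Z samples, with a line at the mean of each group. Mmp11, Mmp13, Mmp14 and Mmp19 show no overlap between the groups, and Mmp9 shows a low pair of treated samples.

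Membrane type MMPs stay anchored at the cell surface, and Mmp14 was the most abundant per length of the 6 tested. Mmp14 (Entrez 17387), which cuts fibrillar collagen and activates pro-MMP2 together with TIMP2, had 834, 1110, 1190 and 1200 CPM in control. It had 657, 595, 592 and 751 CPM in Z1C2Z. All treated samples were below all control samples, and control-1 was the lowest control. Mmp14 fell by 0.74 on the log2 scale (SE 0.14, edgeR adjusted p = 0.0303, exact permutation p = 0.0286). The other membrane type genes (Mmp15, Mmp16, Mmp17, Mmp24 and Mmp25) had means of 0.568 to 13.5 CPM in control and did not pass the test, with log2 fold changes between −0.67 and 0.66.

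Mmp19 had the smallest adjusted p of the family. Mmp19 (Entrez 58223), a secreted MMP that cuts basement membrane components, had 157, 194, 193 and 326 CPM in control. It had 68.5, 40.9, 42.9 and 88.4 CPM in Z1C2Z. The lowest control sample was well above the highest treated sample. Mmp19 fell by 1.85 on the log2 scale (SE 0.30, edgeR adjusted p = 0.0299, exact permutation p = 0.0286). In the GENCODE annotation 789 of its exon bases (22.3%) also belong to Tmem198b on the opposite strand, which had 590 to 1122 counts per sample and was also called lower (log2 fold change −0.64, edgeR adjusted p = 0.0303). The strand setting of the authors' counting is not given in the sources used here. The other tested genes of this mixed class (Mmp23, Mmp27 and Mmp28) had log2 fold changes between −0.26 and 0.06 and did not pass the test. Mmp20, the enamelysin of teeth, had 0, 1, 2 and 0 counts in control and 7, 5, 11 and 2 in Z1C2Z. After scaling its groups did not overlap, by the small gap between control-3 and Z1C2Z-5 with 2 counts each, and it was below the count filter of the edgeR test (exact permutation p = 0.0286). Mmp21 had 1 count in all 8 samples together.

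Mmp2, Mmp14 and Mmp19 were also lower relative to the summed level of fibroblast markers, which is mostly collagen I RNA. These 7 markers (Pdgfra, Pdgfrb, Col1a1, Col1a2, Lum, Dcn, Col6a1) summed to 32100 to 44400 CPM in control and 24800 to 34500 CPM in Z1C2Z, and 3 of them (Lum, Dcn and Col6a1) were called lower. Most of the sum came from Col1a1 and Col1a2, with control means of 15130 and 17450 CPM. The log2 fold changes of the 7 markers lay between −0.67 and −0.37 (median −0.64). Those of Mmp2 and Mmp14 (−0.78 and −0.74) were not far below this range. Per 1000 CPM of the markers, Mmp2 stood at 23.0 to 29.2 CPM in control and 20.2 to 22.6 CPM in Z1C2Z. Mmp14 stood at 26.0 to 27.4 CPM in control and 21.7 to 24.0 CPM in Z1C2Z by the same measure. Mmp19 stood at 4.34 to 7.47 CPM in control and 1.65 to 2.56 CPM in Z1C2Z. These 3 ratios did not overlap between the groups, whereas those of Mmp3, Mmp11, Mmp13, Timp1, Timp2, Timp3, Adamts1, Adamts2, Adamts9 and Adamts14 did. The ratios were chosen after the values were seen and were not tested.

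The 4 TIMPs did not move together. edgeR called 0 of them, with 2 lower and 1 higher at an unadjusted p under 0.05 and 1 called lower by DESeq2. Timp1 (Entrez 21857), the inhibitor that inflammatory signals induce, had 164, 88.9, 43.7 and 273 CPM in control and 48.4, 15.9, 17.9 and 76.2 CPM in Z1C2Z. The control samples ranged widely, with control-3 below Z1C2Z-1 and Z1C2Z-5, and the log2 fold change was −1.85 (SE 0.64, edgeR adjusted p = 0.102). Timp2 (Entrez 21858), which also takes part in the activation of pro-MMP2, had 857, 965, 1040 and 878 CPM in control and 751, 610, 678 and 796 CPM in Z1C2Z. The groups did not overlap, and the log2 fold change was −0.40 (SE 0.11, edgeR adjusted p = 0.0608, exact permutation p = 0.0286). Timp3 (Entrez 21859), which binds the matrix and also inhibits ADAMTS enzymes, had 434, 345, 391 and 396 CPM in control and 471, 459, 493 and 416 CPM in Z1C2Z. Only control-1 lay inside the treated range, and the log2 fold change was 0.23 (SE 0.10, edgeR adjusted p = 0.162). Timp4 was scarce, with 2.88, 2.14, 1.40 and 2.39 CPM in control and 3.05, 3.99, 3.62 and 2.25 CPM in Z1C2Z, a log2 fold change of 0.55 (SE 0.27, edgeR adjusted p = 0.217). Timp3 shares 1733 exon bases (21.3%) with Syn3 on the opposite strand, which had 9 to 68 counts per sample. Timp4 shares 90 exon bases with Syn2 on the opposite strand, whose 50 to 109 counts per sample were close to those of Timp4 itself. With the hair follicle score as covariate, edgeR gave Timp1 a log2 fold change of 1.28, opposite in sign and not called (edgeR adjusted p = 0.912).

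**Figure D3:**
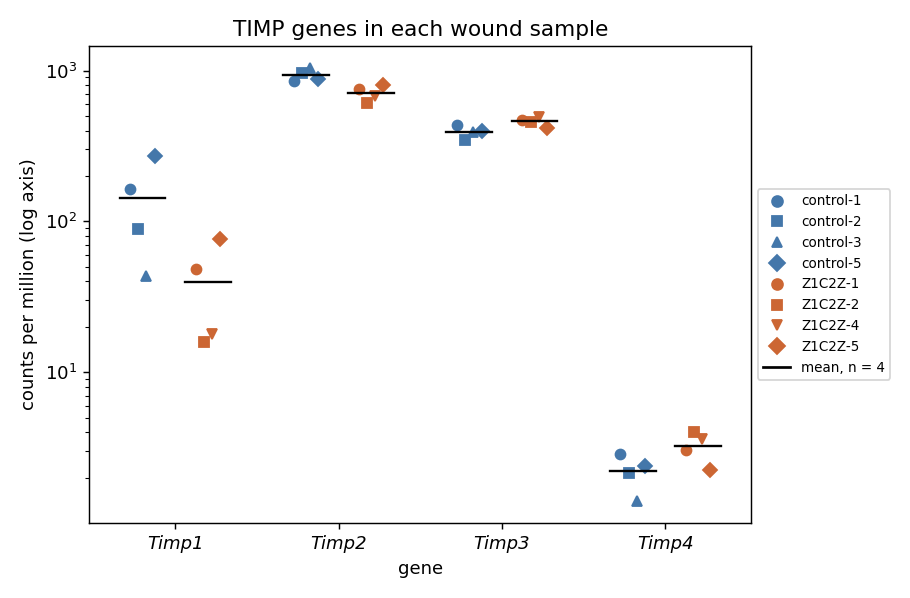
CPM on a log axis for the 4 Timp genes in each control and Z1C2Z sample, with a line at the mean of each group of 4. Timp2 shows no overlap between the groups, and Timp1 spreads from 43.7 to 273 CPM within the control samples.

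Levels of different genes were compared per kilobase of exon (RPKM, computed from the scaled counts and GENCODE exon lengths). Among enzymes, Mmp2 led with a mean of 318 RPKM in control, followed by Mmp3 at 256 and Mmp14 at 182 RPKM. Their ranges over control samples overlapped (219 to 362, 154 to 386 and 140 to 201 RPKM). Timp2 was the most abundant inhibitor at 240 RPKM, followed by Timp1 at 160 and Timp3 at 48.1 RPKM, and the range of Timp1 in control (49.2 to 308 RPKM) covered that of Timp2 and overlapped that of Timp3 (42.3 to 53.3 RPKM). In Z1C2Z, the mean of Timp1 was 44.6 RPKM and that of Timp3 was 56.5 RPKM. Summed over the 23 Mmp genes, the level was 803, 976, 892 and 1210 RPKM in control and 566, 454, 422 and 692 RPKM in Z1C2Z, with no overlap. Mmp2 and Mmp14 alone gave 44.3% to 63.0% of this sum in control and 51.0% to 60.2% in Z1C2Z. The 4 Timp genes summed to 458, 390, 364 and 582 RPKM in control and 306, 232, 255 and 342 RPKM in Z1C2Z, again with no overlap. The ratio of the sums was 1.75, 2.50, 2.45 and 2.08 in control and 1.85, 1.96, 1.65 and 2.03 in Z1C2Z, which overlapped. RNA levels do not measure how much enzyme was active.

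ADAMTS proteases that cut proteoglycans such as aggrecan and versican moved in both directions. Of the 7 tested, Adamts1 and Adamts9 fell and Adamts20 rose, with a class median of −0.72. Adamts1 (Entrez 11504), a versican-cutting enzyme, had 185, 136, 126 and 213 CPM in control. It had 92.4, 71.4, 87.3 and 102 CPM in Z1C2Z. The groups did not overlap, and Adamts1 fell by 0.91 on the log2 scale (SE 0.18, edgeR adjusted p = 0.0303, exact permutation p = 0.0286). Adamts9 (Entrez 101401), which also cuts versican, had 53.9, 70.6, 55.5 and 95.5 CPM in control and 36.4, 29.1, 25.0 and 46.5 CPM in Z1C2Z. All treated samples were below all control samples, and Adamts9 fell by 1.01 on the log2 scale (SE 0.24, edgeR adjusted p = 0.0386). Adamts4, an aggrecanase, had 46.8 to 145 CPM in control and 16.6 to 52.8 CPM in Z1C2Z, and its log2 fold change of −1.48 did not pass the test (SE 0.43, edgeR adjusted p = 0.0653). Adamts15 likewise did not pass at −0.72 (SE 0.21, edgeR adjusted p = 0.0693), whereas Adamts5 and Adamts8 had −0.15 and −0.17.

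Adamts20 and Adamts18 were the members that rose. Adamts20 (Entrez 223838), whose loss causes the white belt of belted mice, had 6.50, 5.99, 8.18 and 4.34 CPM in control. It had 16.9, 18.9, 15.4 and 8.51 CPM in Z1C2Z. The groups came close only between control-3 and Z1C2Z-5 without overlapping, and the log2 fold change was 1.26 (SE 0.27, edgeR adjusted p = 0.0333, exact permutation p = 0.0286). Adamts18 (Entrez 208936), a secreted protease with few known substrates, had 6.47, 7.19, 13.3 and 6.82 CPM in control and 19.2, 21.2, 21.6 and 13.1 CPM in Z1C2Z. Here control-3 and Z1C2Z-5 overlapped narrowly, and the log2 fold change was 1.15 (SE 0.26, edgeR adjusted p = 0.0362). Hair follicle markers had the same extremes, highest among controls in control-3 (2300 CPM) and lowest among treated samples in Z1C2Z-5 (2810 CPM), and all 10 were called higher. Per 1000 CPM of these markers, Adamts20 stood at 3.56 to 12.8 CPM in control and 1.58 to 3.09 CPM in Z1C2Z, and Adamts18 at 4.96 to 15.2 CPM and 1.98 to 4.67 CPM. The markers rose more than either gene, with log2 fold changes between 2.09 and 4.36, so both ratios were lower in Z1C2Z. These ratios were not tested. With the hair follicle score as covariate, the edgeR log2 fold changes were 0.24 for Adamts20 and 0.10 for Adamts18. That score did not overlap between the groups, so the fit cannot tell a difference by treatment from one that follows the score. The part of hair follicles in the rise of both genes was not tested.

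Procollagen N-proteinases remove the amino-terminal propeptide so that collagen can form fibrils. All 3 had a negative log2 fold change (median −0.46), and Adamts14 passed the test. Adamts14 (Entrez 237360) had 13.5, 21.4, 23.2 and 18.9 CPM in control and 11.4, 12.0, 10.2 and 13.7 CPM in Z1C2Z. The groups overlapped through control-1, and Adamts14 fell by 0.70 on the log2 scale (SE 0.17, edgeR adjusted p = 0.0430). Adamts2 (Entrez 216725), the most abundant ADAMTS gene per length, had 303, 435, 385 and 430 CPM in control and 324, 226, 242 and 336 CPM in Z1C2Z. Control-1 again lay inside the treated range, and the log2 fold change was −0.46 (SE 0.17, edgeR adjusted p = 0.111). Adamts3 had a log2 fold change of −0.27 (SE 0.21, edgeR adjusted p = 0.416).

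Of the 8 other tested ADAMTS genes, Adamts18 alone was called, and the class median was −0.26. Adamts12, which cuts cartilage oligomeric matrix protein, was the most abundant of them per length and had 85.3, 160, 163 and 122 CPM in control and 120, 74.6, 67.7 and 109 CPM in Z1C2Z. The groups overlapped, and the log2 fold change was −0.52 (SE 0.25, edgeR adjusted p = 0.206). Adamts7, which cuts the same protein, had the most negative value of the class (−1.02, SE 0.33, edgeR adjusted p = 0.0842). The 5 ADAMTS-like genes encode matrix proteins without a protease domain, several of which bind fibrillin microfibrils. All 5 had a log2 fold change under 0 (−0.83 to −0.13), and edgeR called 0, with 1 at an unadjusted p under 0.05 and 0 by DESeq2. Adamtsl1, which took the most counts of these before any correction for length, had 25.5, 40.1, 37.0 and 43.0 CPM in control and 37.1, 20.8, 16.9 and 33.5 CPM in Z1C2Z. Its groups overlapped, and the log2 fold change was −0.43 (SE 0.26, edgeR adjusted p = 0.318). Adamts13, the von Willebrand factor protease, had 0 to 4 counts in control and 1 to 20 in Z1C2Z and was not tested.

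**Figure D4:**
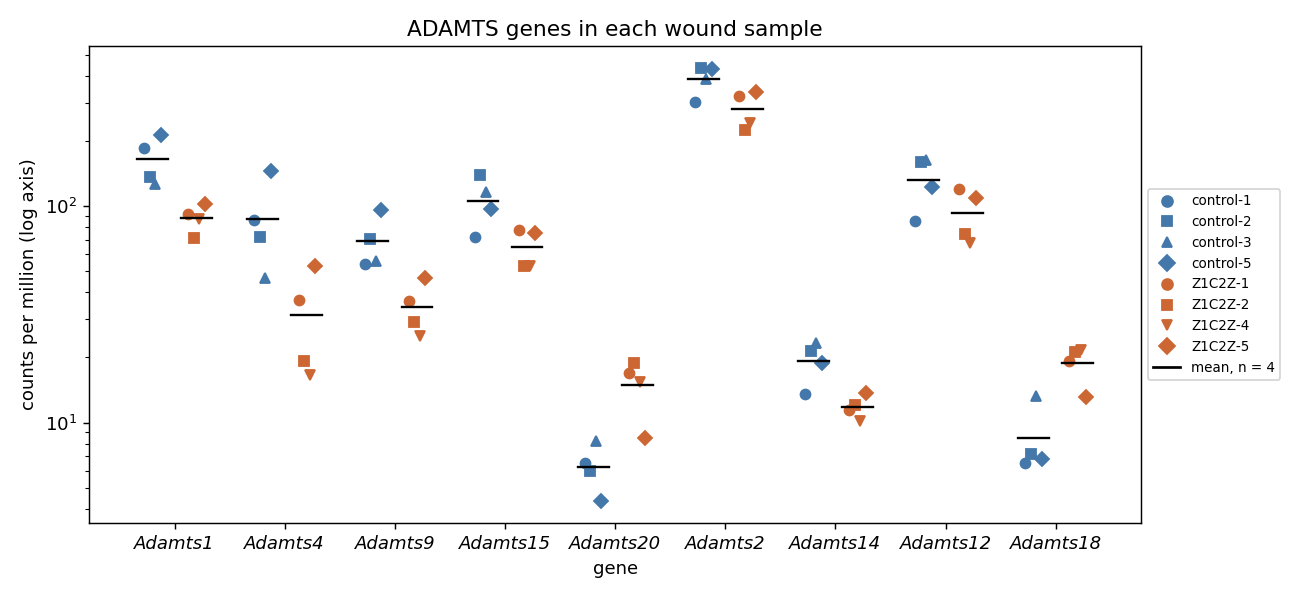
CPM on a log axis for 9 Adamts genes in each control and Z1C2Z sample, with a line at the mean of each group of 4. Adamts1 and Adamts9 lie lower and Adamts20 higher in every Z1C2Z sample than in any control sample.

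The treated samples differed among themselves in the same way for many members. In 28 of the 46 tested members (60.9%), Z1C2Z-2 and Z1C2Z-4 were the 2 lowest of the treated samples, and this held for 31.7% of all genes tested. Mmp2, Mmp8, Mmp9, Mmp10, Mmp13, Mmp14 and Mmp19 were among them. In the control group, control-5 was the highest sample for 18 members (39.1%, against 26.0% of all genes) and control-1 the lowest for 20 (43.5%, against 31.7%). The same treated pair had the highest hair follicle marker sums (10700 and 9700 CPM) and the lowest fibroblast sums (24800 and 25800 CPM). Their part in the order of the samples was not tested.

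**Figure D5:**
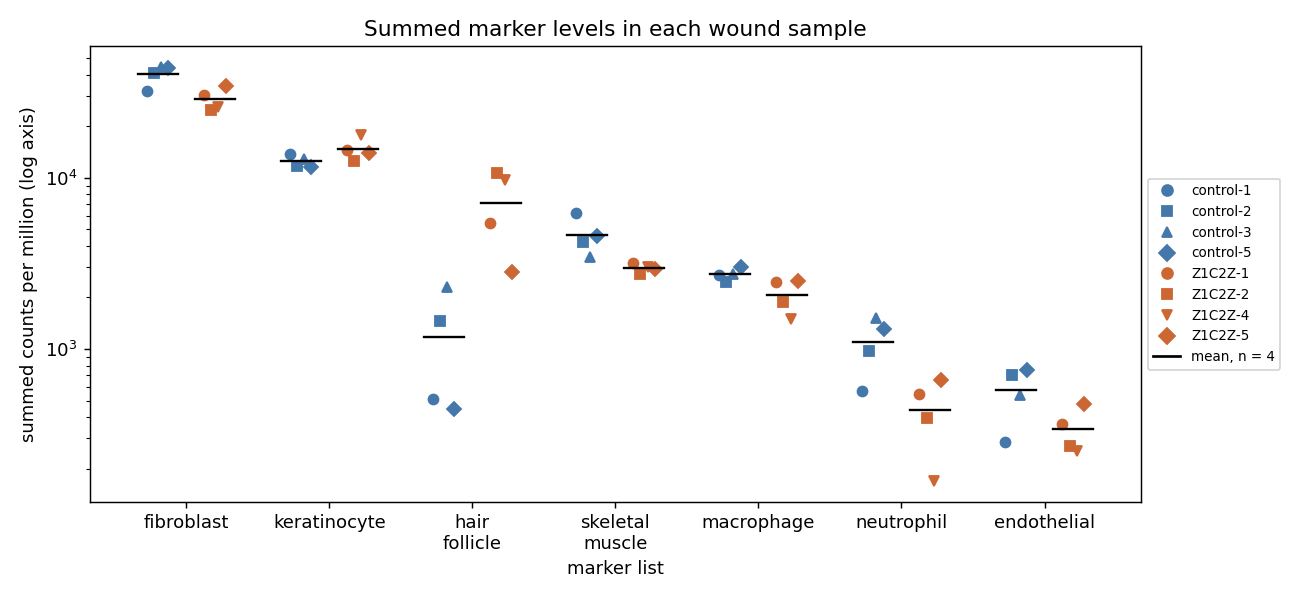
Summed CPM of cell type marker lists on a log axis in each control and Z1C2Z sample, with a line at the mean of each group of 4. Hair follicle markers lie higher in every Z1C2Z sample, while fibroblast and neutrophil markers overlap between the groups.

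Genes that act with these proteases were described from lists chosen by role, with earlier results of these data known. For comparison with each list, 4.28% of all genes tested were called higher and 3.85% lower, with a median log2 fold change of 0.0086. Activators of protease precursors had 1 higher and 2 lower genes among 13 tested, with a median of −0.22. St14 (matriptase) rose, with a log2 fold change of 1.03, whereas Plat (tissue plasminogen activator) and Plaur (urokinase receptor) fell (−0.81 and −1.97), with edgeR adjusted p values of 0.0299, 0.0319 and 0.0303. Furin, which activates Mmp11 and Mmp14 in the secretory pathway, stood at −0.49 on the log2 scale (edgeR adjusted p = 0.0794).

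The list of other protease inhibitors had 4 lower genes among 12 tested and a median of −0.79, where 3.85% of all genes were called lower. It also held Col6a3 (a collagen chain) and Lrp1 (a receptor), which stood at the median with −0.79 and −0.80 and were not called. Among the 4 lower genes, Serpinb2 and Serpine2 (both serine protease inhibitors) and Tfpi2 (a Kunitz-type inhibitor) fell, with log2 fold changes of −2.92, −0.90 and −0.97 and edgeR adjusted p values of 0.0303, 0.0491 and 0.0306. Their SEs were 0.58, 0.24 and 0.20. Serpinb2 varied widely in control, with a mean of 935 CPM and a standard deviation of 719 CPM. Reck, a membrane inhibitor of MMPs, stood at −0.06 (edgeR adjusted p = 0.802). Among 17 other matrix proteases, Adam9 fell by 0.59 on the log2 scale (edgeR adjusted p = 0.0472), and the list median was −0.38. Cathepsin K (Ctsk) stood at a difference of −0.38 (edgeR adjusted p = 0.0701).

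Matrix substrates, with Has2 listed beside them as an enzyme that makes matrix, had 4 lower genes among 21 tested and a median of −0.53. Of all genes tested, 3.85% were called lower. Tnc (tenascin C), Thbs1 (thrombospondin), Has2 (a hyaluronan synthase) and Dcn (decorin) fell, with log2 fold changes of −2.16, −2.22, −1.52 and −0.45 and edgeR adjusted p values of 0.0300, 0.0303, 0.0363 and 0.0320. Their SEs were 0.40, 0.44, 0.34 and 0.09. Thbs1 varied widely in control, with a mean of 981 CPM and a standard deviation of 605 CPM. The fibrillar collagens Col1a1, Col1a2 and Col3a1 had log2 fold changes of −0.57, −0.37 and −0.53 and did not pass the test.

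Signals and factors known to regulate MMP transcription had 7 lower genes among 23 tested, and all 23 had a log2 fold change under 0 (median −0.77). Of all 15147 genes tested, 3.85% were called lower and 7414 had a log2 fold change under 0. The 5 called genes with the highest level were Stat3, Nfkb1, Ets1, Il6 and Tgfb2, by mean CPM over all 8 samples. They fell with log2 fold changes of −0.77, −0.57, −0.88, −5.51 and −0.85 and edgeR adjusted p values of 0.0337, 0.0470, 0.0449, 0.0356 and 0.0299. The SEs were 0.17, 0.15, 0.22, 1.23 and 0.15. Il6 varied widely in control, with a mean of 84.3 CPM and a standard deviation of 90.5 CPM. Of the AP-1 genes, Fosb fell by 2.84 (edgeR adjusted p = 0.0339), and Fos, Fosl1 and Fosl2 had log2 fold changes of −1.45, −2.50 and −0.34 (edgeR adjusted p = 0.0681, 0.0508 and 0.0915). Jun, Junb and Jund had −0.08, −0.57 and −0.42 and did not pass the test. In the chromosome 9 run, the tested genes whose promoter window held the AP-1 letters (Mmp13, Mmp12, Mmp1b, Mmp3 and Mmp10) had log2 fold changes of −1.72, 0.10, −1.69, −0.86 and −2.49, and the tested genes without them (Mmp8 and Mmp27) had −1.12 and 0.06. None of the 7 passed the edgeR test, with 4 at an unadjusted p under 0.05 and 3 called by DESeq2. The 7 called members with a promoter window (Adamts1, Adamts9, Adamts14, Adamts18, Adamts20, Mmp11 and Mmp14) did not hold the letters in it.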

How the data were processed

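Skin RNA of 4 control and 4 Z1C2Z samples was sequenced. Per the labels, ribosomal RNA was removed before random-primed cDNA synthesis, and the second strand was marked with dUTP. The labels name Trizol for extraction and the study's methods a tissue and cell kit. Values deposited by the authors are raw, unnormalized read counts per gene for 18540 genes. The aligner, counting program, genome build, annotation and strand setting are not given in the sources used here. Reads shared by overlapping genes or by paralogs such as Mmp1a and Mmp1b were assigned by that counting. No per-sample column was left unused (0 columns).

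Samples were grouped by title. edgeR 4.0.16 under R 4.3.3 kept 15147 genes by filterByExpr and scaled them by TMM. Its quasi-likelihood test had no covariates, and p-values were adjusted by Benjamini-Hochberg over all genes kept. The threshold was an adjusted p of 0.05. SEs were derived from the F statistic. CPM values use TMM-scaled library sizes. Exact two-sided permutation tests on log2 CPM (prior count 2) used all 70 arrangements, with a smallest p of 0.0286. All pairs of replicates differed by more than sampling noise, so each was counted as 1 sample. Members and gene lists were chosen with earlier results of these data known. Any member may be named, and values per sample are given for called members, members without overlap, the most abundant of each class, and well-known MMPs and TIMPs. Of each other list, at most 5 called genes by mean CPM are named, besides genes added after their values were seen (Reck, Furin, Ctsk, Lrp1, the collagens and the AP-1 genes). Of the genes this rule selects, 1 counted gene is not reported here by name. Promoters came from RefSeq (GRCm38.p6), and exon lengths and overlaps from GENCODE M21. The scripts were tested on simulated data. The alternatives were RLE size factors, no filter, at least 10 counts in every sample, DESeq2 1.42.0, the replicate number as a block, skeletal muscle and hair follicle scores as covariates, and each sample left out in turn.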

Additional observations from a re-analysis of the deposited data

Results flagged for a closer look

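Among the 24 members with values given per sample, 48 groups of 4 samples were examined for a sample far from the others, and 2 were found, where chance flags about 1 in 20 groups. Adamts18 in control-3 stood at 13.3 CPM, against 6.47 to 7.19 CPM in the other control samples. Mmp8 in control-5 stood at 14.7 CPM, against 6.00 to 7.38 CPM in the other control samples.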

How the results depend on the processing

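RLE size factors, no low-count filter and at least 10 counts in every sample each gave 2 higher and 7 lower members, and the 9 were the same genes. With a skeletal muscle score or a hair follicle score as covariate, edgeR called 0 members higher and 0 lower, and 0 with a log2 fold change over 1 or under −1. DESeq2 called 15 members lower (and 10.2% of all genes), 6 of them with a log2 fold change under −1 (2.20% of all genes). Leaving out 1 sample gave 0 to 2 higher and 0 to 13 lower members, and with a log2 fold change over 1 or under −1, 0 to 2 higher and 0 to 7 lower. The numbers 1, 2 and 5 occur in both groups, and the deviations of same-numbered samples had correlations of −0.101, −0.0623 and 0.323. So few values cannot show whether the numbers pair the samples. Of the same-numbered samples, those numbered 5 alone correlated best with each other. With the replicate number as a block, 2 members were higher (1.99% of all genes) and 8 lower (1.67%), 6 of these with a log2 fold change under −1 (1.21%), and 5 of the 9 called members were shared. With the hair follicle score as covariate, the log2 fold changes of Mmp10 (0.98), Mmp3 (0.33), Mmp8 (0.34), Mmp9 (0.35) and Timp1 (1.28) reversed. None of them was called in that fit, whose score did not overlap between the groups, and the cause was not tested. Leaving out 1 sample moved Mmp12 between −0.16 and 0.43. It moved further with the skeletal muscle and hair follicle scores as covariates, to 1.58 and 2.50, and was called in neither fit. With the skeletal muscle score, Mmp10 and Timp1 stood at −0.38 and −0.51 and were not called. At these totals Mmp1a, Mmp7, Mmp20, Mmp21 and Adamts13 were below the count filter, and without it edgeR called 0 of them (adjusted p between 0.0873 and 0.523). Adamts13 and Mmp20 had an unadjusted p under 0.05, as did 4487 of all 18413 genes in that fit.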
